A study of Mus musculus with 2 samples.

Results

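The imprinted miRNA cluster that runs from Mir379 to Mir410 and beyond, near the noncoding gene Mirg of mouse chromosome 12 was examined in microRNA sequencing of embryonic heart. Its members were all counted genes whose annotated start lies between 109700000 and 109760000 on chromosome 12 of GRCm38, the build also called mm10, on either strand. This gave 38 of the 1973 miRNA genes in the count tables. Of the 38 rows, 34 lie on the plus strand, and 4 are minus-strand gene models whose opposite-strand reads belong to the plus-strand miRNA they overlap. These 4 rows, Gm24321, Gm25252, Gm25750 and Mir299b, were read on the plus strand as Mir409, Mir376a, Mir380 and Mir299a. The annotation places 44 miRNA genes in the interval, of which Mir376b and Gm44322 were not analysed here.

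The 2 libraries formed 1 group, biological replicates 1 and 2 of whole heart from healthy B6NCrl embryos at 11.5 days, with RNA under 30 nt sequenced. Each was a pool of male and female embryos; 109 went into replicate 1, and for replicate 2 the sources used here give no number. The labels describe separate tissue samples but not separate litters, so the spread between the replicates may be partly technical. Replicate 1 held 18667369 counts on miRNA genes and replicate 2 held 2037827, so that the first was sequenced 9.16-fold more deeply. Levels are given as CPM, counts scaled to a library total of 1000000, and errors are SD over n = 2.

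The cluster lies in the imprinted Dlk1-Dio3 domain, where the protein-coding genes are expressed from the chromosome inherited from the father and the noncoding RNAs from the maternal one. A long run of noncoding RNA, named Meg3, Rian and Mirg along its length, carries snoRNAs and many miRNA hairpins that are cut from it by the Drosha-containing Microprocessor and then by Dicer. A miRNA finds its targets mainly through its seed, bases 2 to 8 from the 5′ end. The cluster is found in placental mammals, is best known from brain and placenta, and in heart and skeletal muscle its transcription has been linked to the factor MEF2A. Gene-level counts do not separate the 5p and 3p arms of a hairpin, so each level below belongs to both arms together.

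RefSeq, on GRCm38.p6, held mature sequences for 37 of the 38 genes, with 69 arms and 64 distinct seeds. Among these arms, 5 seeds were shared by 2 members, and those pairs took in 9 genes. A single arm was held for each of Mir376c, Mir453, Mir485, Mir487b and Mir539, so seeds on any other arm of theirs were not compared. They are printed here, seed in capitals, because a shared seed is where separate hairpins of the cluster could reach the same targets. The leading pair comes from Mir379 and Mir411, which lie beside each other at the 5′ end of the cluster:
miR-379-3p: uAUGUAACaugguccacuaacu
miR-411-3p: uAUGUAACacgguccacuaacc
The 5p arm of Mir379 shares its seed with Mir1193, and the 5p arm of Mir411 carries a related but different one:
miR-379-5p: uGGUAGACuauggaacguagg
miR-1193-5p: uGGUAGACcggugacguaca
miR-411-5p: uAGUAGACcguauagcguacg
The last 3 shared seeds all begin with the same 5 bases and again lie on 5p arms, apart from the single annotated arm of Mir453:
miR-410-5p: aGGUUGUCugugaugaguucg
miR-494-5p: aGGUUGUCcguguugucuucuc
miR-758-5p: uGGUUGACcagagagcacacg
miR-1197-5p: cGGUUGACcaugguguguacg
miR-496a-5p: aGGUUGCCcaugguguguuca
miR-453: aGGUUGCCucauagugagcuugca

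The genes carrying AUGUAAC, Mir379 and Mir411, summed to 13840 CPM in the first library and 14427 CPM in the second. Those carrying GGUAGAC, Mir379 and Mir1193, summed to 5639 and 5663 CPM. The pair sharing GGUUGUC, Mir410 and Mir494, summed to 619 and 617 CPM. The GGUUGAC pair reached 42.6 and 38.3 CPM, nearly all of it from Mir758. For GGUUGCC all counts came from Mir496a, since Mir453 had 0 counts in both libraries. A further 12 member seeds occur on an arm of a gene that is no counted member, among them those shared with miR-299b-3p and miR-376b-5p, whose genes lie in the same interval. Among them, the seed of miR-329-3p is that of miR-362-3p, whose gene Mir362 stood at 111 and 141 CPM beside 252 and 320 CPM for Mir329. The seed of miR-410-3p, AUAUAAC, occurs in the miR-344d and miR-344e 3p arms, whose counted genes summed to 0.214 CPM in replicate 1 and 0 in replicate 2.

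The cluster took 5.12% of all miRNA counts in replicate 1, with an exact 95% Clopper-Pearson interval of 5.114 to 5.134%. In replicate 2 it took 5.05%, with an interval of 5.024 to 5.085%. The mean was 5.09% ± 0.05, so the libraries differed by little although their depths differed greatly. These intervals, like all below, take in no error but that of counting, because without molecular identifiers several reads may stem from 1 molecule. The share would be 4.07% if the 4 minus-strand rows were read on their own strand, because plus-strand reads on those rows made up 20.9% ± 0.63 of the cluster's counts. Outside the Dlk1-Dio3 domain every gene was read on its own strand only, here and in the comparisons with all genes below. With both strands counted for every gene the share was 4.91%, below both intervals. The other 21 miRNA genes between Dlk1 and Dio3, which include those upstream in Meg3 and Rian, took 1.68% and 1.65%. The cluster exceeded them 3.05-fold, with a log2 ratio of 1.61 ± 0.002 that was larger than the spread between the libraries. Of those 21 genes, 14 were detected, with a median level of 596 and 586 CPM.

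Detection was called at 1 CPM or more in both libraries, and 35 of the 38 members, 92.1%, met it, beside 21.3% of all 1973 genes. At 100 CPM or more in both libraries stood 27 members, 71.1%, beside 9.93% of all genes. At 1000 CPM or more stood 12 members, of 89 genes in all. The detected members had a median level of 346 CPM in the first library and 378 CPM in the second, beside 83.5 and 80.5 CPM for all detected genes. The 3 members that were not detected were Mir654 and Mir453, at 0 counts in both libraries, and the predicted gene Gm27379, with 6 counts and 1 count. With 3 counts as the floor, a gene at 0 could have had up to 0.161 CPM in the deeper library and 1.47 CPM in the other.

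A few hairpins supplied most of the counts. Mir411 alone made up 18.8% ± 0.93 of the cluster, the leading 3 members 42.8% ± 0.43, the leading 5 members 58.6% ± 0.84 and the leading 10 members 84.9% ± 0.36. At least 90% of the counts came from 13 members. Among the members at 100 CPM or more, the highest exceeded the lowest 80.1-fold. The plot of levels by gene shows this range.

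**Figure D1:**
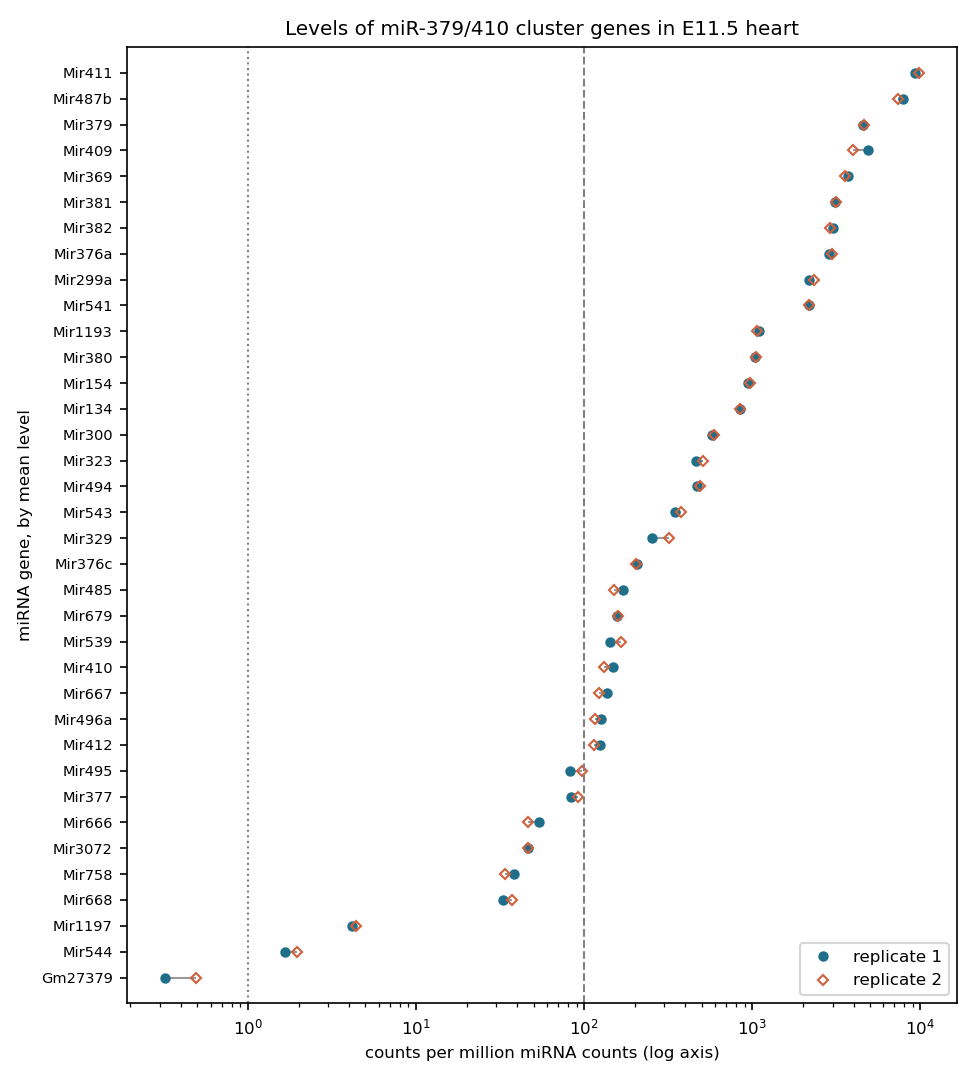
Level of each cluster gene with counts in both libraries, in CPM on a log axis, for replicate 1 (filled circles) and replicate 2 (open diamonds), joined by a line; the dotted line marks 1 CPM and the dashed line 100 CPM. Mir411 leads at 9295 and 9837 CPM, 27 genes lie at 100 CPM or more in both libraries, and Mir544 at 1.66 and 1.96 CPM is the lowest detected gene.

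The highest members lay at opposite ends and in the middle of the cluster. Mir411 (ENSMUSG00000065477.2), at chromosome 12 from 109710175 to 109710256, was counted at 9295 CPM in the first library and 9837 CPM in the second. Mir487b (ENSMUSG00000076219.1), from 109727333 to 109727414, stood at 7918 and 7341 CPM. Both lie outside annotated same-strand genes, and Mir411 was the higher in each library, by 0.33 ± 0.14 on the log2 scale. Mir379 (ENSMUSG00000065498.3), the first hairpin of the cluster, from 109709060 to 109709125, stood at 4544 and 4590 CPM. Mir409, in an intron of Mirg from 109743158 to 109743236, stood at 4854 and 3972 CPM. Mir379 and Mir409 changed places between the libraries and did not differ beyond their spread. Mir369 (ENSMUSG00000065561.2), in a Mirg exon from 109743418 to 109743496, stood at 3703 and 3567 CPM, below Mir409 in both. miR-369-3p is known for acting on AU-rich elements, such as that of the tumour necrosis factor mRNA.

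Mir381 stood at 3112 and 3145 CPM, Mir382 at 3021 and 2882 CPM, and Mir376a at 2851 and 2975 CPM. Mir382 and Mir376a did not differ beyond their spread. The miR-376 hairpins are known substrates of adenosine-to-inosine editing, and a count per gene does not show whether reads were edited. Mir299a stood at 2168 and 2316 CPM and Mir541 at 2184 and 2178 CPM, another pair in which the order changed between libraries. Mir1193 stood at 1095 and 1073 CPM and Mir380 at 1039 and 1050 CPM. These 12 genes were the members at 1000 CPM or more in both libraries.

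Besides the shared seeds of Mir379, Mir411 and Mir1193 printed above, arms of other leading genes and of Mir300 are printed here to show their seeds, again in capitals:
miR-487b-5p: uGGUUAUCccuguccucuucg
miR-409-3p: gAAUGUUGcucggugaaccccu
miR-369-3p: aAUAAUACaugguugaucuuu
miR-382-5p: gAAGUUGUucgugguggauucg
miR-376a-3p: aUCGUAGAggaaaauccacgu
miR-381-3p: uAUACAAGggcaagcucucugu
miR-300-3p: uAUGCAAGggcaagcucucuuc
The last pair, from hairpins 2430 nt apart, share a run of 16 bases and carry similar but not identical seeds. The letters of the miR-381-3p seed, AUACAAG, also occur in the 3′ part of the Mir539 hairpin, for which no 3p arm was held. The genes Mir381 and Mir300 stood 5.39-fold apart, with Mir300 at 574 and 587 CPM. Apart from Mir299a, whose arms recur on its own opposite strand as described below, no mature arm of a member had a run of 20 bases or more in another annotated hairpin. The longest such run was 18 bases, of miR-376c-5p in Mir376b.

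The genes named here for roles in neurons, Mir134, Mir485 and Mir329, lay in the middle of the range. They are examples and not all members known from neurons. Mir134, whose miRNA restrains Limk1 translation in dendritic spines, stood at 846 CPM in both libraries. Mir485, whose miRNA acts on the synaptic vesicle protein SV2A, stood at 169 and 150 CPM. Mir329, induced with Mir134 by MEF2 in neurons, stood at 252 and 320 CPM. Mir154, in an intron of Mirg, stood at 946 and 973 CPM, and Mir487b exceeded it 7.95-fold, with a log2 ratio of 2.99 ± 0.11 that was larger than the spread.

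The members named here for reported cardiac roles, Mir494, Mir410 and Mir495, ranged from about the level of Mir323 down. They are examples and not a full list of such members. Mir494, known from protection of the heart against ischaemic injury, stood at 471 and 486 CPM. miR-410 and miR-495 have been reported to raise cardiomyocyte proliferation, with Cited2 as a target. Mir410 stood at 148 and 131 CPM, and Mir495 at 81.9 and 96.7 CPM. Neither was among the leading 20 members. Mir410, which gives the cluster the second part of its name, was 32.8-fold below Mir379, which gives the first, with a log2 ratio of -5.04 ± 0.13. Mir411 in turn exceeded Mir379 2.09-fold, with a log2 ratio of 1.07 ± 0.05. Both ratios were larger than the spread.

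The other members at 100 CPM or more were mostly within a narrow band. Mir323 stood at 465 and 510 CPM, Mir543 at 346 and 378 CPM, and Mir376c at 206 and 203 CPM. Mir376a exceeded Mir376c 14.3-fold, with a log2 ratio of 3.83 ± 0.06 that was larger than the spread. The row read as Mir376a is 120 nt wide for a gene of 68 nt, and that of Mir380 is 112 nt for 61 nt, so reads on their flanks would be counted with them. Mir679 stood at 157 and 159 CPM, Mir539 at 142 and 166 CPM, and Mir667 at 136 and 123 CPM. Mir496a stood at 126 and 116 CPM and Mir412 at 125 and 114 CPM. From Mir485 down to Mir377, no gene differed from the next in the order beyond their spread.

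Below 100 CPM in at least 1 library were Mir495, Mir377, Mir666, Mir3072, Mir758 and Mir668, which ranged from 32.8 to 83.2 CPM in replicate 1 and from 33.9 to 96.7 CPM in replicate 2. The lowest detected were Mir1197, at 78 counts and 9 counts, and Mir544, at 31 counts and 4 counts. In the order of all 35 detected members, 17 of 34 neighbouring pairs differed by more than their spread and 17 did not. A pair was said to differ when both libraries had the same order, the exact binomial interval of the ratio excluded equality in each, and the mean log2 ratio exceeded its SD.

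Hairpins next to each other on the chromosome stood at very different levels. There were 31 pairs of immediate neighbours with both genes detected, and 19 of them lay under 1000 nt apart. All 19 close pairs differed by 2-fold or more, 8 of them by 10-fold or more, and their median was 7.87-fold. Mir380 exceeded Mir1197, 453 nt downstream, 243-fold, and Mir323, 71 nt further on, exceeded Mir1197 113-fold. Mir487b exceeded Mir539, 714 nt downstream, 49.6-fold. At the 3′ end, Mir412 lies between Mir409 and Mir369, with gaps of 52 and 49 nt. Mir409 exceeded it 36.8-fold and Mir369 exceeded it 30.5-fold. Mir369 in turn exceeded Mir410, 218 nt downstream, 26.1-fold. Across these pairs the ratio had the same direction in both libraries. These are ratios of counts: how well each miRNA was captured and read was not measured.

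Level did not follow position. Over all 38 members, log2(CPM + 1) had a Pearson r of -0.08 and a Spearman rho of -0.16 with the start coordinate, a description across genes of 1 locus that share their libraries. The members span 38.9 kb. The first 19 by position, up to Mir300, held 46.4% of the cluster's counts in replicate 1 and 49.0% in replicate 2. Set against the last 19, from Mir381 on, their log2 ratio was -0.21 in replicate 1 and -0.06 in replicate 2, with a mean of -0.13 ± 0.11. That ratio is larger than the spread by the rule, but it was the smallest of the 8 ratios formed, of 9 fixed.

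**Figure D2:**
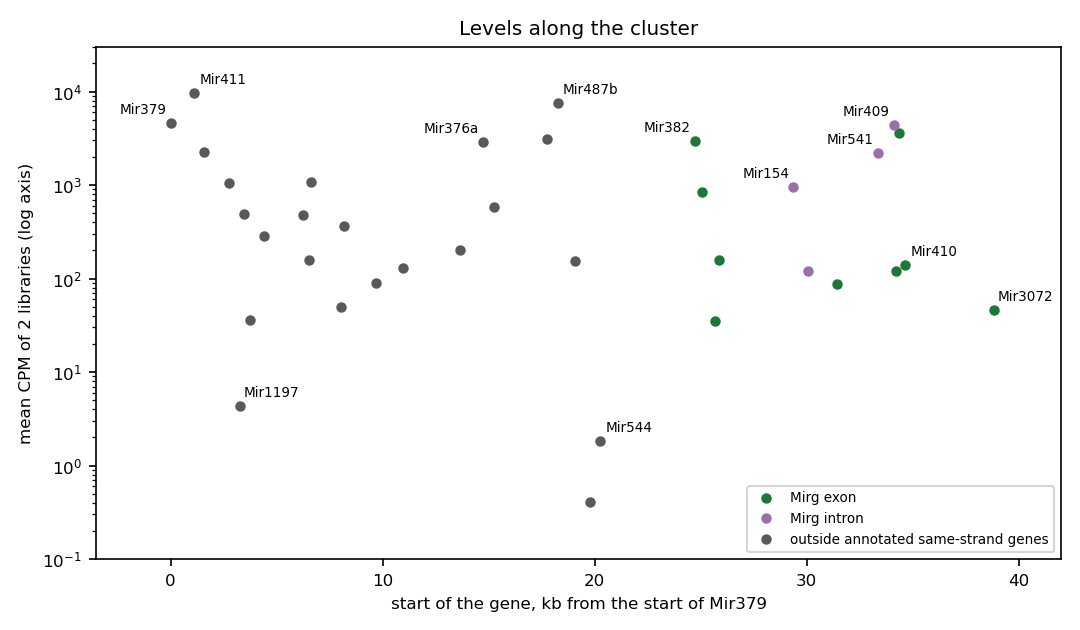
Mean CPM of the 2 libraries on a log axis against the start of each cluster gene in kb from the start of Mir379; colours mark genes in a Mirg exon, in a Mirg intron and outside annotated same-strand genes, and the 2 genes at 0 are not drawn. High and low genes stand side by side along the whole span, as with Mir1197 near the 5′ end and Mir412 and Mir410 near the 3′ end.

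The annotation puts only the 3′ portion of the cluster inside Mirg. Mirg exons hold 9 members, all detected, with 15.8% ± 0.28 of the cluster's counts. Mirg introns hold 5, of which 4 were detected, with 15.1% ± 1.07. Outside any annotated same-strand gene lie 24, of which 22 were detected, with 69.2% ± 1.34. The median level of detected members was 139 ± 11.8 CPM in exons, 1570 ± 7.35 CPM in introns and 419 ± 18.6 CPM outside. The intron median rests on Mir154, Mir496a, Mir541 and Mir409.

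RefSeq held hairpins for 35 members, and several had a sequence in common. The letters UUCGCUU, searched on the RNA strand after the hairpins had been inspected, occurred in 10 of 35 member hairpins, 28.6%, and in 2 of 970 other hairpins, 0.206%. None of the 20 hairpins of the other miRNA genes between Dlk1 and Dio3 held it. Those with the motif were Mir154, Mir323, Mir329, Mir369, Mir377, Mir382, Mir410, Mir487b, Mir495 and Mir543. In Mir329 the letters stand at the 5′ end of the hairpin, before the 5p arm. Of these, 4 are printed with the motif in capitals, from levels between those of Mir487b and Mir410:
Mir487b: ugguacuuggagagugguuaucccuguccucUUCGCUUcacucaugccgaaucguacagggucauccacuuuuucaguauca
Mir369: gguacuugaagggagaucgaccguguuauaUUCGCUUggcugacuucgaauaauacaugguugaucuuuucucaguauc
Mir154: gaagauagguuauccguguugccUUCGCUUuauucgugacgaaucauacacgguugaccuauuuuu
Mir410: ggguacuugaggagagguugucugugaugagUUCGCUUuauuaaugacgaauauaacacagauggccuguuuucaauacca
Mean levels of the genes with the motif ran from 87.5 CPM for Mir377 to 7630 CPM for Mir487b, and no hairpin in the table from a detected member of lower level held it. The median level of the genes with the motif was 406 and 444 CPM, beside 206 and 203 CPM for those without. This is a description with no test. Those without include Mir453 and Mir654 at 0, whereas all with the motif were detected. The median without falls on Mir376c, and the next gene up without the motif, Mir494, stood at 471 and 486 CPM. With Mir453 and Mir654 left out it falls on Mir494, above that of the genes with the motif. The letters UACUUG, near the 5′ end of several member hairpins, occurred in 10 of 35, against 16 of 970 others, 1.65%. A match is a description of these letters and not of a site. Member hairpins had a median GC content of 43.4%, with a range of 29.1 to 72.3%, below the 51.9% median of the others in 28 of 35. GC content had a Spearman rho of -0.28 with the mean level over the 35 hairpins.

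Mir299a stands apart in its hairpin. Its arms are inverted copies of each other over 21 nt, marked in capitals, whereas the median for member hairpins was 6 nt and the next longest 14 nt:
Mir299a: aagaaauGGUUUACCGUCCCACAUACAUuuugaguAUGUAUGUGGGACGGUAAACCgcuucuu
The opposite strand of such a hairpin reads much like the hairpin itself, and a gene on that strand is annotated as Mir299b. The levels of both were taken from the strand of the reads on 1 row, 49 nt wide for a gene of 63 nt, so their separation is uncertain. Plus-strand reads on it gave Mir299a 40478 counts in replicate 1 and 4719 in replicate 2. Mir299a was 4.27-fold below Mir411, its neighbour 381 nt upstream, with a log2 ratio of -2.09 ± 0.01 that was larger than the spread. With own-strand counts on that row, which lie on the strand of Mir299b, the log2 ratio was -10.40.

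Replicate 2 was compared with replicate 1 to see which members differed between the 2 pooled libraries of 1 group. This compares 2 libraries and not conditions. Each gene had a two-sided exact binomial test of its counts against the depths of the libraries. After Benjamini-Hochberg adjustment over the 473 genes at 1 CPM or more in either library, none of the 35 members tested was past both an adjusted p of 0.05 and a fold of 2, beside 2.96% of all genes tested. At an unadjusted p under 0.05 stood 13 of the 35 members, beside 147 of the 421 detected genes. By edgeR's exact test 0 members stood there, before or after adjustment, beside 12 of the 421 before it. Its dispersion was estimated from these same 2 libraries taken as 1 group. The differences tested thus entered its error, and it is no independent check. In the binomial test without the fold minimum, 6 members were higher in replicate 2, 17.1%, beside 13.1% of all genes. They were Mir411, Mir299a, Mir323, Mir329, Mir376a and Mir539. Another 4 were lower, 11.4%, beside 13.7% of all genes, namely Mir487b, Mir382, Mir409 and Mir369. The members' shares are near those of all genes.

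The sizes were small. Mir329 had the highest ratio, 1.27-fold with an interval of 1.17 to 1.38 and an adjusted exact binomial p of 3.18e-07. Mir409 had the lowest, at 0.818 of its level in replicate 1, with an interval of 0.7997 to 0.8371 and an adjusted exact binomial p of 4.12e-69. The 35 detected members ranged from -0.29 to 0.34 in log2 ratio. Their median absolute difference was 1.07-fold, beside 1.10-fold for all detected genes. Over them, CPM in replicate 2 had a Pearson r of 0.999 and a Spearman rho of 0.996 with CPM in replicate 1, a correlation across genes, which are not independent replicates.

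**Figure D3:**
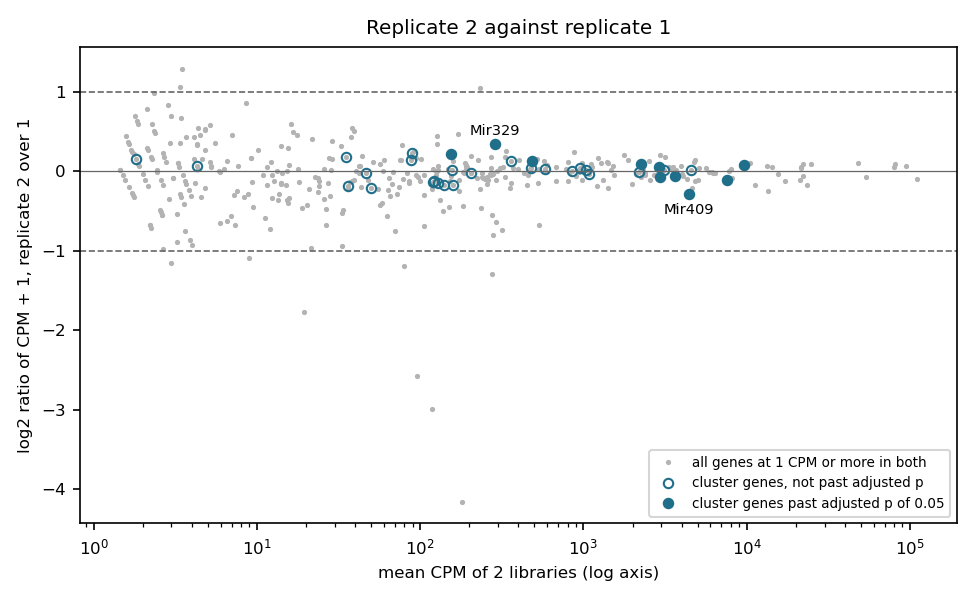
Log2 ratio of CPM + 1 in replicate 2 over replicate 1 against mean CPM on a log axis; grey points are all genes at 1 CPM or more in both libraries, filled circles are cluster genes past an adjusted binomial p of 0.05, open circles the other cluster genes, and dashed lines mark 2-fold. All cluster genes lie inside the 2-fold lines, with Mir329 the highest and Mir409 the lowest.

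The libraries were checked against miRNAs that mark cell types. Heart miRNAs summed to 57772 and 62508 CPM, with 5 of 6 detected and none at 0 in both libraries. Most of the sum came from Mir208b, at 45970 and 49705 CPM, and Mir208a, at 10151 and 10890 CPM. Mir133a-1 had 30 and 11 counts, and Mir133a-2 had 23 and 0. The endothelial Mir126a stood at 78653 and 83846 CPM and the smooth muscle Mir143 and Mir145a at 92723 and 97632 CPM. Red cell miRNAs, 3 of 3 detected, summed to 1073 and 1026 CPM, and leukocyte miRNAs, 3 of 3 counted, to 391 and 363 CPM. Neural miRNAs were at 291 and 269 CPM in sum, with 7 of 12 detected and Mir124a-1, Mir124a-3 and Mir9-2 at 0 in both libraries. The cluster exceeded this sum 182-fold, with a log2 ratio of 7.51 ± 0.06. Reads that map to several places stand on no gene, so miRNAs with identical copies, such as miR-124, miR-9 and miR-128, can be undercounted: these zeros do not show absence, and the 182-fold is a ratio of counted reads only. The heart's own miR-1, with such copies, had 55 and 3 counts on Mir1a-1. Epithelial miRNAs, 7 of 7 detected, summed to 2121 and 1473 CPM and those of liver and endoderm, 6 of 6 detected, to 910 and 588 CPM, in libraries where the cluster took 5.12% and 5.05%. In whole tissue, fewer cells of a type and less of a miRNA per cell cannot be told apart, and which heart cells hold the cluster's miRNAs was not measured.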

How the data were processed

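For 2 libraries the authors deposited unnormalized read counts on miRNA genes, on mm10 with GENCODE M4, per the file headers. The sources used here name no aligner or counter. The tables have 3 count columns without names, taken from their sums as both strands, own strand and opposite strand, and 4 summary rows, left out of all totals. Multimapping reads, 33.8% and 33.2% of mapped reads, stand on no gene. Gene IDs were matched to GENCODE M21, on the same build (1894 of 1973).

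Own-strand counts were used, except for minus-strand models of the Dlk1-Dio3 domain that overlap a plus-strand miRNA, read on the opposite strand. CPM and exact tests were computed with SciPy 1.17.1, and scaling and dispersion with edgeR 4.0.16 (TMM) and DESeq2 1.42.0 in R 4.3.3. Log2 ratios of CPM used a pseudocount of 1. No p is given across the replicates, since an exact sign-flip test of 2 libraries cannot go below 0.5. Members at 100 CPM or more in both libraries were named with both values, the others once. Members and lists were chosen with earlier results of these data known, and the sequence motifs after reading the hairpins. Alternatives covered strand, denominator, scaling, detection limit, fold minimum, pseudocount and each replicate left out.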

Additional observations from a re-analysis of the deposited data

Results flagged for a closer look

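A signal lay outside the strand used for the members. Reads on Mir299b's own strand numbered 146 in replicate 1 and 13 in replicate 2, which is 0.359% (exact 95% Clopper-Pearson interval 0.304 to 0.423) and 0.275% (0.146 to 0.469) of the reads on that row. The other 3 minus-strand rows had 0 own-strand counts in both libraries, and none of the 34 plus-strand members had counts on the opposite strand.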

How the results depend on the processing

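The cluster's share of 5.09% became 4.07% with own-strand counts only, 4.91% with both strands, 2.80% with all mapped reads as the denominator and 4.13% without Mir411. The count of members called between libraries went from 0 to 10 with no fold minimum, and that of all genes from 14 to 127 with no fold minimum, 23 at 1.5-fold and 4 with edgeR's exact test. The position r went from -0.077 to -0.041 over detected members, and the summed CPM of the AUGUAAC seed from 14133 to 13634 with both strands. The strand, denominator, member and fold settings act by construction, and for edgeR's test the cause was not tested. The log2 ratio of Mir299a to Mir411 kept its direction but went from -2.09 to -10.40 with own-strand counts, which for that row lie on the strand of Mir299b. In the other 69 combinations no direction was reversed, no member was called and no count moved by over 1.5 times. These include each replicate left out (shares of 5.05 to 5.12%). Within these combinations the genes called fell from 14 to as few as 11, and the detected members from 35 to as few as 32. The Mir376a to Mir376c ratio could not be formed with own-strand counts, nor Mir299a to Mir411 without shared-sequence members, nor any ratio to Mir376b. No paired analysis was possible because there was 1 group. Depth limits members under 100 CPM in replicate 2.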

Other observations

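Differences between the libraries had different signs in the first and last members by position. Among the first 19, 18 were detected, and 13 had a higher level in replicate 2 and 5 a lower one; 5 were past the adjusted binomial p higher and 0 lower. Among the last 19, 17 were detected, 7 higher and 10 lower, with 1 past the adjusted p higher and 4 lower. Median log2 ratios were 0.04 and -0.01. Over the 35 detected members the log2 ratio had a Pearson r of -0.33 and a Spearman rho of -0.33 with position, and over the 33 of them with a hairpin in RefSeq a rho of -0.30 with GC content. All compare 2 libraries, and this grouping was chosen after the values were seen.

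The seed of miR-412-3p is also that of miR-1983, whose gene Mir1983 stood at 4594 and 5076 CPM beside 125 and 114 CPM for Mir412. The seed of miR-377-5p is that of miR-672-5p, with Mir672 at 118 and 121 CPM beside 83.2 and 91.8 CPM for Mir377, and that of miR-1193-3p is that of miR-370-5p, with Mir370 at 482 and 518 CPM. Summed over arms, these are levels of genes that hold a seed, not of the arm that carries it.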
